A study of Mus musculus with 12 samples.

Results

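The guidance genes described here are the ephrin ligands, their Eph receptors, the class 3 to 7 semaphorins, the plexins and the neuropilins of the mouse. They were chosen by gene symbol alone, and 53 of the 57180 genes in the deposited table carry such a symbol. By role, these are 8 ephrin ligands, 14 Eph receptors, 20 semaphorins, 9 plexins and 2 neuropilins. Of these 53 genes, 35 reached 1 TPM (transcripts per gene length, scaled to a fixed library total) in 3 or more of the 12 libraries and were tested, and 18 did not.

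The libraries come from HC11, a mouse mammary epithelial line, in which the transcription factor Snail1 (gene Snai1) was knocked down (KD) or which served as the control. Control libraries carry "scr" in their titles and the genotype label WT. Cells of both kinds were sorted by flow cytometry, left overnight in low-serum medium with EGF and insulin to form aggregates, and put through a migration assay in vitro. The 4 groups were KD at 36 h, control at 36 h, KD at 0 h and control at 0 h, with 3 libraries in each, so that EGF and insulin were common to every group. The comparison addresses the part of Snail1 in collective migration. The labels describe neither the knockdown construct nor the number of clones or cultures, and each p-value therefore reflects the spread among these libraries alone, which may be technical. The control 36 h libraries are numbered 1, 3 and 4. Library 4 is titled as a "mix" with no further word on it, and the authors' own mean column for this group averages libraries 1 and 3 without it.

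Ephrins are ligands tethered to the cell surface, and the Eph receptor tyrosine kinases bind them on a touching cell, so that signals can pass into either cell. Ephrin-A ligands are held by a lipid anchor and mostly bind EphA receptors, and ephrin-B ligands span the membrane and mostly bind EphB receptors. Class 3 semaphorins are secreted and bind neuropilins, which have short cytoplasmic tails and form receptor complexes with plexins. Semaphorins of the other classes described here are mostly membrane proteins that bind plexins directly. These families were first known for steering axons, and they also act on the adhesion, repulsion and movement of epithelial cells, those of the mammary gland included. Snail1 is a zinc finger repressor that binds the E-box CAGGTG and lowers E-cadherin transcription.

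Snai1 itself checks the labels. It measured 0.20 to 0.58 TPM in the KD 36 h libraries, against 2.69 to 3.92 TPM in the control 36 h libraries. At 0 h it measured 0.48 to 0.79 TPM in the KD libraries, against 1.34 to 2.51 TPM in the control libraries. The groups did not overlap at either time (exact permutation test, two-sided, p = 0.1 at each time, the smallest that 3 against 3 can give). Of 10 mammary epithelial markers, all 10 were detected in each group, with summed levels of 19527 to 25519 TPM in KD 36 h, 15971 to 18849 TPM in control 36 h, 3351 to 10355 TPM in KD 0 h and 10192 to 10416 TPM in control 0 h. Immune and adipocyte markers summed to at most 1.29 TPM and 0.27 TPM in any library, endothelial markers to 0.49 to 7.12 TPM, fibroblast markers to 4.78 to 24.4 TPM and neuronal and glial markers to 2.24 to 17.6 TPM. Adipoq and Lep were at 0 in every library. KD 0 h library 2 stood apart, with 14.0% of its TPM in mitochondrial genes, against 1.45% to 6.15% in the others. Its correlation with each other library, on log2(TPM + 1) of the tested genes, was 0.794 to 0.874. Every pair of other libraries was at 0.917 or above. KD 0 h library 3 had 27715 genes above 0, against 20932 to 23427 in the others.

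The promoters of 2 guidance genes are printed to show what a window with and without the Snail1 E-box looks like. Sequences are RefSeq's for the build GRCm38.p6 (the deposited table was made on GRCm39), run 5′ to 3′ on the gene's strand, and span 250 bases before to 50 bases after the annotated start. Nrp2, the guidance gene with the largest fold change at both times, has no match in its window at chr1:62703067-62703366 on the plus strand. Sema4c is the one gene lower in the 0 h knockdown with a match, shown in capitals in its window at chr1:36558332-36558631 on the minus strand, and a second Sema4c window has none.
Nrp2: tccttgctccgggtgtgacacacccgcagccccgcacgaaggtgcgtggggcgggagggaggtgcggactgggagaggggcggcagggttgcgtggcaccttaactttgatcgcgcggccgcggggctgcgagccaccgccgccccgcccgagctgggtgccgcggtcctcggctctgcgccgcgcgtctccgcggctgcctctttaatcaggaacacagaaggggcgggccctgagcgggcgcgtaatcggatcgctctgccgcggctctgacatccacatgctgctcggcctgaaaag
Sema4c: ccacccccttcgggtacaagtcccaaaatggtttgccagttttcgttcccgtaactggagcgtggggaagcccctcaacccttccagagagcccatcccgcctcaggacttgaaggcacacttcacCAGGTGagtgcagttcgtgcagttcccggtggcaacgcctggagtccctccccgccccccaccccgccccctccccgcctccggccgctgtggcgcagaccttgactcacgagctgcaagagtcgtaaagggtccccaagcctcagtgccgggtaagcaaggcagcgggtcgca

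The motif was searched as CAGGTG on both strands, so that CACCTG counts as the same match, and no other motif was searched. Windows were found for 47 of the 53 guidance genes. Of these, 8 (17.0%) held the motif, beside 6098 of all 27025 genes in the table (22.6%). Among the 12 genes lower in the 0 h knockdown, 9 had a window and 1 of them held the motif. Among the tested genes that did not pass there, 22 had a window and 3 held it, namely Epha1, Plxnb2 and Sema3d. A match in such a window is a description of its letters, and its absence says nothing of Snail1 elsewhere.

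The levels of the guidance genes spread from 0 to above 100 TPM. The highest means over the 12 libraries were those of the ligand Efna1 (135 TPM), the receptor Plxnb2 (111 TPM), the receptor Ephb4 (78.7 TPM) and the ligand Sema4a (68.2 TPM), and 18 genes averaged 10 TPM or more. By class, 5 of 5 ephrin-A ligands, 1 of 3 ephrin-B ligands, 5 of 9 EphA receptors and 4 of 5 EphB receptors were tested. Of the semaphorins, 6 of 7 of class 3, 4 of 6 of class 4, 1 of 2 of class 5, 2 of 4 of class 6 and 0 of 1 of class 7 were tested, beside 5 of 9 plexins and 2 of 2 neuropilins. Of the 18 genes not tested, 16 were under 1 TPM in every library. Just under the limit, Efnb2 was at 1 TPM in 2 libraries, both of them control at 36 h, and Sema4g in 1 library. Just over it, Sema6c and Ephb1 were at 1 TPM in 5 libraries each and Epha3 in 6. A gene that is high in one group alone passes this limit through that group, so that the tested genes do not stand for all 53.

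**Figure D1:**
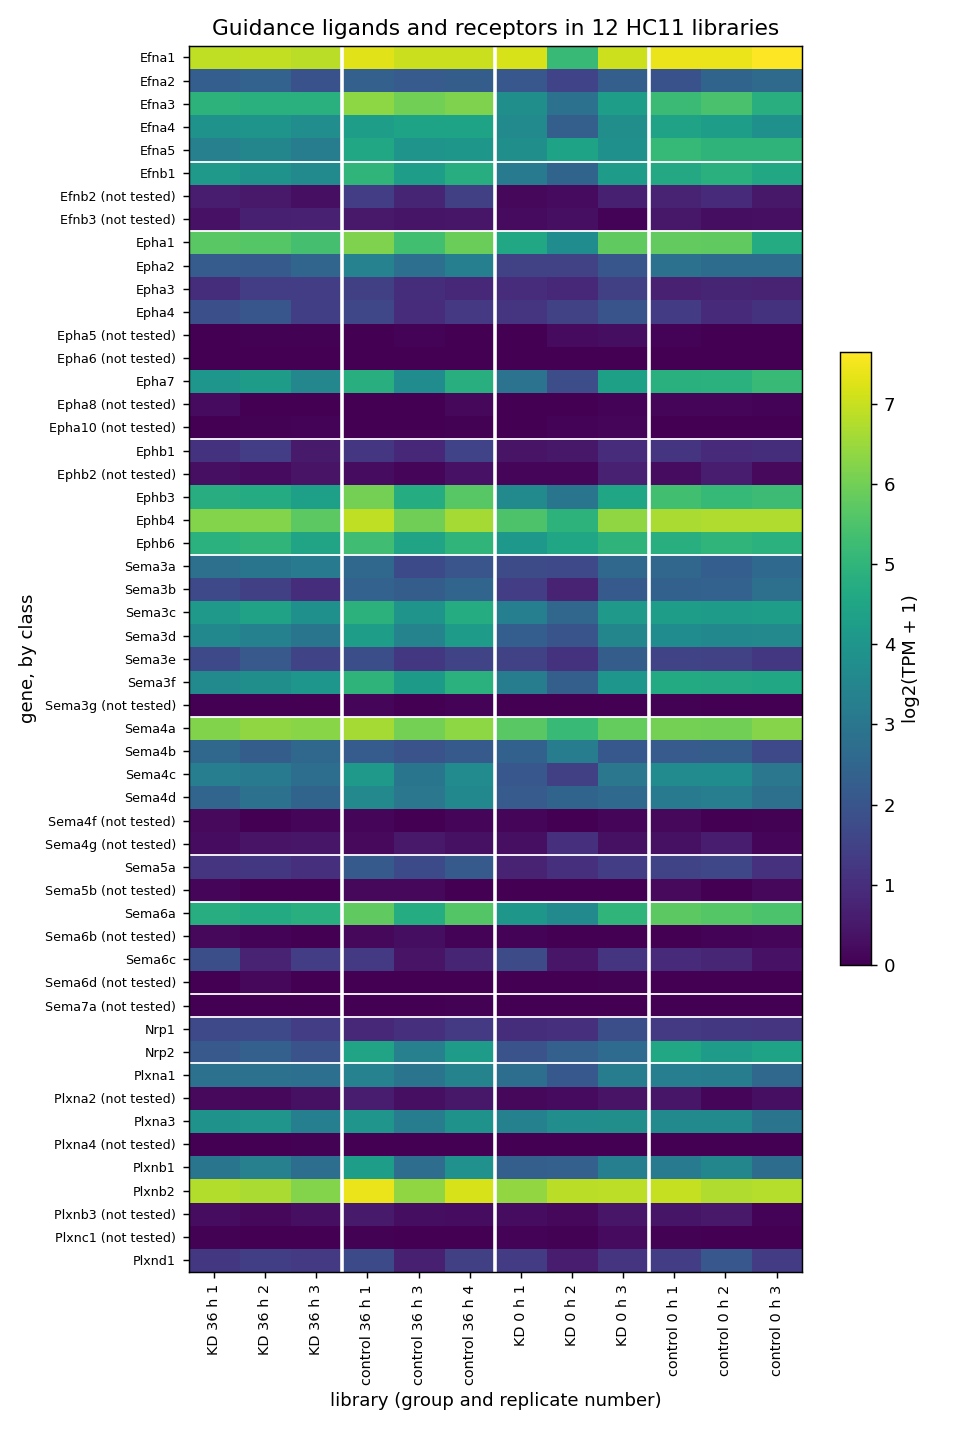
Level of all 53 guidance genes as log2(TPM + 1) (colour) in the 12 libraries (columns, by group and replicate number), ordered by class, with genes that were not tested marked so. Efna1, Plxnb2, Ephb4 and Sema4a are the brightest rows, and Sema7a is dark in every library.

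At 0 h, just before migration, 12 of the 35 tested guidance genes were lower in the knockdown and 0 were higher. The 12 comprise the co-receptor Nrp2, the ephrins Efna3, Efna5 and Efnb1, the Eph receptors Epha2, Epha7, Ephb3 and Ephb4, and the semaphorins Sema3b, Sema3f, Sema4c and Sema6a. Their mean levels were 20.3% of control for Nrp2, under 40% of control for Epha7 (31.1%), Efna3 (35.8%), Ephb3 (35.9%), Sema3f (38.5%), Sema4c (38.6%) and Epha2 (39.8%), 40% to 40.4% of control for Sema3b, Sema6a and Efnb1, and near 50% for Efna5 and Ephb4. At 36 h, 1 of the 35 was lower, again Nrp2, at 21.5% of control. All tests are limma on log2(TPM + 1) over all 12 libraries with Benjamini-Hochberg adjustment over 14426 tested genes, called at an adjusted p under 0.05. Every fold change is on that log2 scale, which understates the change of low genes. In these bulk libraries, fewer cells of a type and less RNA per cell cannot be told apart.

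The 12 of 35 (34.3%) lower at 0 h stand beside a background of 14.6% of all tested genes called lower and 3.1% called higher. At 36 h, 1 of 35 (2.86%) stands beside 1.64% lower and 0.894% higher, a share near the background. With the scaling described next, 2 of 35 were lower (Nrp2 and Efna3) and 1 higher (Sema3a) at 36 h, beside 3.44% and 2.5% of all genes. The median log2 difference of the tested guidance genes was −0.65 at 0 h, beside −0.41 over all tested genes, and −0.43 at 36 h, beside −0.09. Median-of-ratios scaling, which sets the typical gene equal across libraries, moved the median of all genes at 0 h to 0.02 and that of the guidance genes to −0.23. Its factor was 0.507 for KD 0 h library 2, against 0.902 to 1.22 for the other libraries. The percentages of control given above for 0 h are unscaled. With the scaling, 8 of 35 were lower and 0 higher at 0 h, beside 10.2% and 8.66% of all genes. The 12 genes were all below 0 under that scaling too, but Efna5, Sema3b, Sema4c and Ephb4 did not pass.

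The count at 0 h moved with single libraries. Without KD 0 h library 3 it was 20, among them all 12, where 34.8% of all genes were called lower. Without control 0 h library 1 it was 2 (5.71%), beside 4.39% of all genes called lower. Without control 0 h library 2 it was 3 (8.57%), beside 5.78%, and without control 0 h library 3 it was 3 (8.57%), beside 5.43%. The shares without a control 0 h library lay nearer the background than that of the full fit. Without KD 0 h library 1 the count was 8 (22.9%), beside 15.2%, and without KD 0 h library 2 it was 10 (28.6%), beside 16.5%. When the KD and control 0 h libraries were fitted alone, 0 guidance genes and 16 of all genes passed, Nrp2 (adjusted p = 0.063) and Efna3 (adjusted p = 0.13) not among them. When the KD and control 36 h libraries were fitted alone, 7 guidance genes passed, all lower, beside 1367 of all 14426 genes called lower. The counts at 0 h and 36 h thus depended on which libraries were fitted together, and they do not rank the times. At 0 h, Nrp2 and Efna3 were called in each fit that left out 1 library, and Epha2 in each but the one without control 0 h library 1 (adjusted p = 0.061). The calls of Efna5, Sema3f, Sema6a and Ephb3 were each lost without any one control 0 h library, and those of Efnb1 and Epha7 also without KD 0 h library 1. KD 0 h library 3 was the highest of its group in 30 of the 35 genes (85.7%), beside 53.9% of all tested genes, and library 2 the lowest in 22 (62.9%), beside 66.6%. The epithelial markers Cldn3, Cldn4 and Krt7, 3 of 10, were also lower in the 0 h knockdown, as were 1 of 4 tested fibroblast markers, Col1a1, and 1 of 3 tested neuronal and glial markers, Tubb3. At 36 h the fibroblast marker Col3a1, at most 1.56 TPM in any library, averaged 0.207 TPM in KD and 1.40 TPM in control cells. The fibroblast markers did not all go one way at 36 h. Col1a1, Col1a2, Pdgfra and Pdgfrb also had lower means in KD than in control cells, while Dcn and Lum had higher ones. The part of these markers and of the mitochondrial share in these results was not tested.

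**Figure D2:**
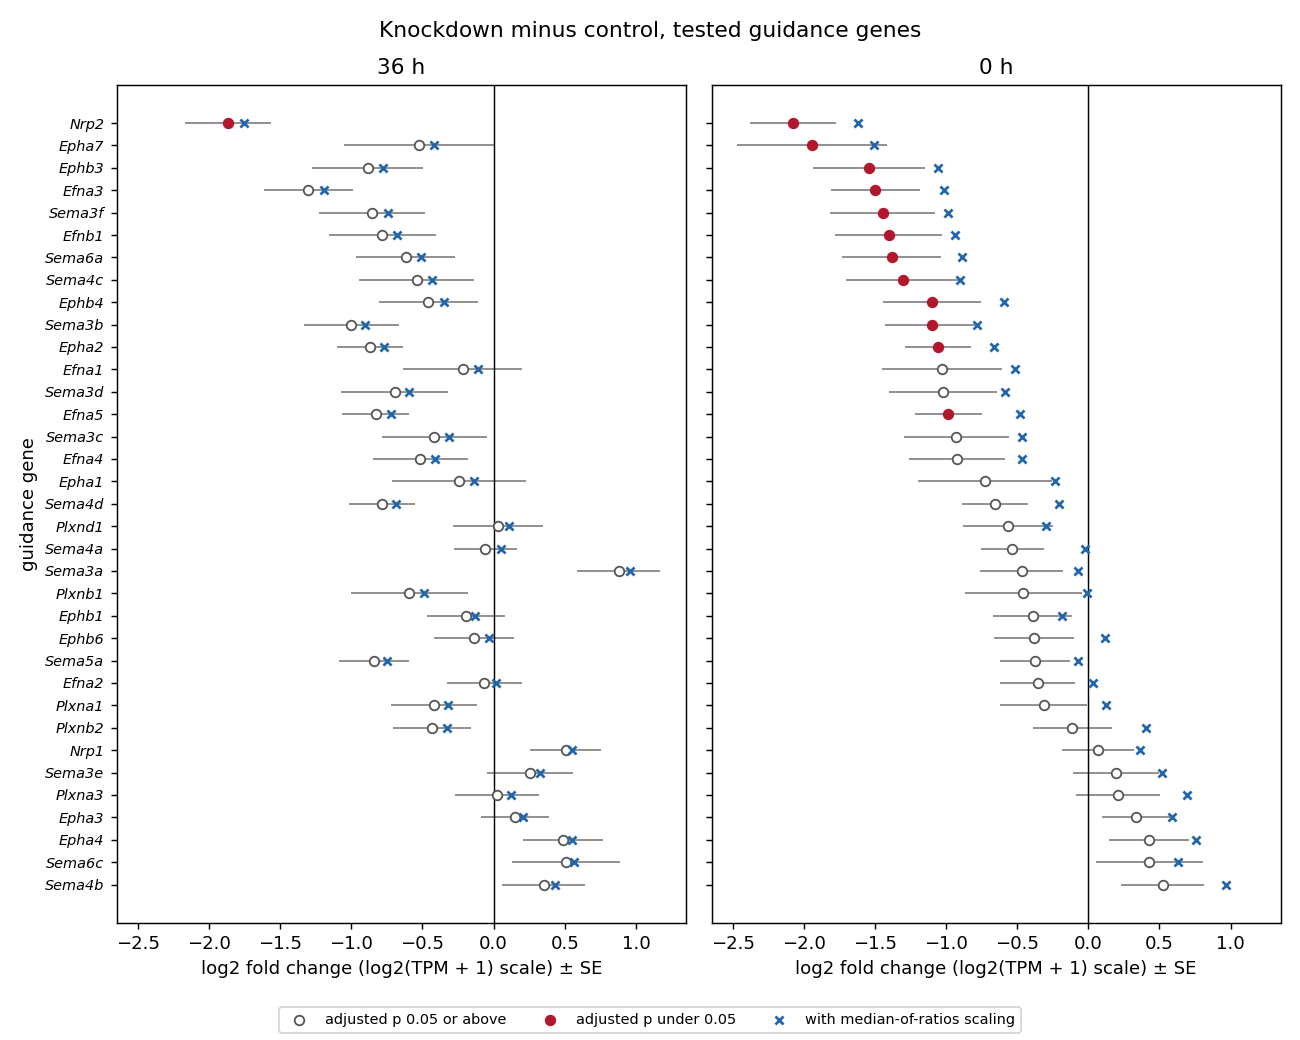
Knockdown minus control for the 35 tested guidance genes at 36 h (left) and 0 h (right), as log2 fold change on the log2(TPM + 1) scale with its SE from limma; red points passed an adjusted p of 0.05, open points did not, and crosses give the value with median-of-ratios scaling. Nrp2 lies farthest to the left at both times, and most crosses at 0 h lie to the right of their points.

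The neuropilins are the co-receptors that bind class 3 semaphorins, and Nrp2 also binds VEGF family ligands. Nrp2 (ENSMUSG00000025969) measured 2.89, 4.08 and 5.35 TPM in KD 0 h libraries 1 to 3, against 22.9, 17.4 and 20.4 TPM in control 0 h libraries 1 to 3. At 36 h it measured 3.40, 4.05 and 2.85 TPM in KD libraries 1 to 3, against 21.1, 9.11 and 17.6 TPM in control libraries 1, 3 and 4. Every KD library lay below every control library at both times, and control 36 h library 3 was the lowest control. The log2 difference was −2.07 (SE 0.30, adjusted p = 0.0024) at 0 h and −1.87 (SE 0.30, adjusted p = 0.015) at 36 h. The call at 36 h was lost on leaving out any KD 36 h library or control 36 h library 1 or 4 (adjusted p = 0.065 to 0.092).

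Nrp1 (ENSMUSG00000025810), the other neuropilin, was low in every group. It measured 2.23, 2.25 and 1.60 TPM in the KD 36 h libraries, against 0.850, 1.08 and 1.47 TPM in control 36 h libraries 1, 3 and 4. These groups did not overlap, and the difference of 0.51 (SE 0.25) did not pass (adjusted p = 0.36). At 0 h it averaged 1.54 ± 0.88 TPM in KD and 1.34 ± 0.10 TPM in control libraries (SD, n = 3 each), which overlapped. Nrp2 therefore made up 60.4%, 64.3% and 64.0% of the summed neuropilin TPM in the KD 36 h libraries, against 96.1%, 89.4% and 92.3% in the control 36 h libraries. At 0 h its share was 74.5%, 79.1% and 67.6% in KD, against 94.1%, 92.8% and 94.3% in control libraries. Such shares do not depend on the scaling of a library. They were chosen after the values were seen and are given with no test, as is the choice of Nrp1.

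Among the secreted class 3 semaphorins, which signal through neuropilin and plexin complexes, Sema3f had the highest mean, and it binds Nrp2. Sema3f (ENSMUSG00000034684) measured 8.25, 3.94 and 15.1 TPM in KD 0 h libraries, against 24.3, 23.6 and 22.9 TPM in control 0 h libraries. KD library 3 was the highest of its group and still below every control library. The log2 difference was −1.45 (SE 0.37, adjusted p = 0.024). At 36 h Sema3f measured 11.5, 12.9 and 15.3 TPM in KD libraries, against 30.2, 16.9 and 28.7 TPM in control libraries 1, 3 and 4. These groups did not overlap either, with a difference of −0.85 that did not pass (adjusted p = 0.28).

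Sema3b, which also binds neuropilins, had a few TPM. Sema3b (ENSMUSG00000057969) measured 1.62, 0.680 and 3.52 TPM in KD 0 h libraries, against 4.15, 4.33 and 6.07 TPM in control 0 h libraries (−1.10, SE 0.33, adjusted p = 0.044). At 36 h Sema3b measured 2.25, 1.73 and 0.980 TPM in KD libraries, against 4.27, 3.73 and 4.63 TPM in control libraries (−1.0, adjusted p = 0.15). The groups did not overlap at either time, and the 0 h call was lost in 11 of the 12 fits that left out 1 library.

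Sema3a, the collapsin that binds Nrp1, ran the other way at 36 h. Sema3a (ENSMUSG00000028883) measured 6.05, 6.83 and 7.75 TPM in KD 36 h libraries, against 4.89, 2.26 and 3.05 TPM in control 36 h libraries 1, 3 and 4. Every KD library lay above every control library, and the difference of 0.88 (SE 0.29) did not pass (adjusted p = 0.15), while with median-of-ratios scaling it did (0.96, adjusted p = 0.039). At 0 h Sema3a measured 2.39, 2.2 and 5.03 TPM in KD libraries, against 4.76, 3.90 and 5.14 TPM in control libraries, and the groups overlapped. Sema3a was picked out after its values were seen. Its share of the summed TPM of Sema3a and Sema3f was 34.5%, 34.6% and 33.7% in KD 36 h libraries, against 13.9%, 11.8% and 9.60% in control 36 h libraries.

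**Figure D3:**
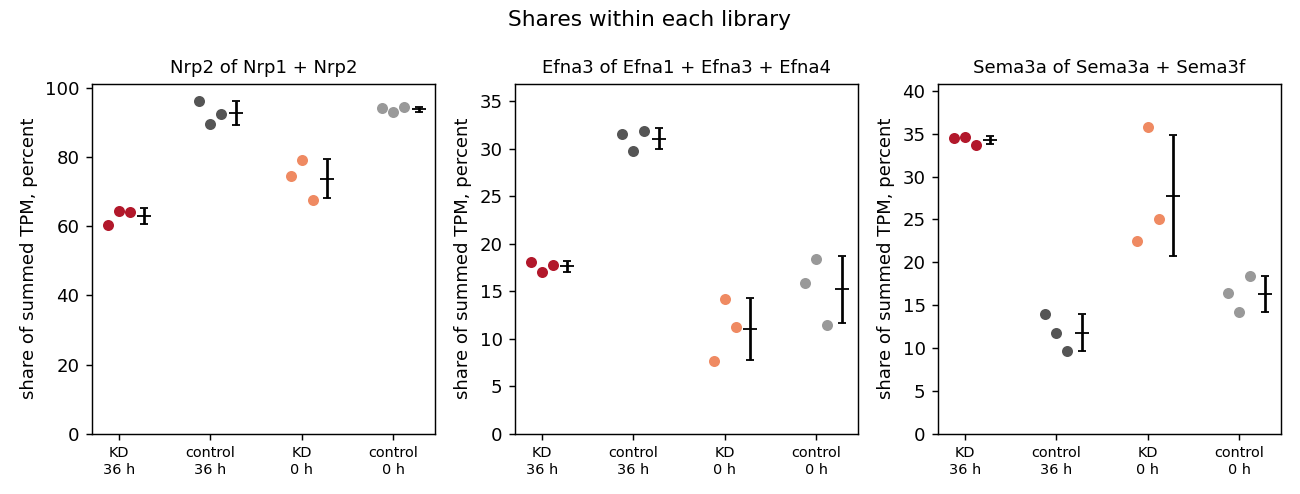
Shares of summed TPM within each library, in percent, for Nrp2 among the neuropilins, Efna3 among the 3 ephrin-A ligands that lie side by side, and Sema3a among Sema3a and Sema3f; dots are libraries and bars give the mean ± SD of 3. The Nrp2 share lies between 60.4% and 79.1% in all KD libraries and at 89.4% or above in all control libraries.

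The membrane semaphorins signal between touching cells. Sema6a (ENSMUSG00000019647), a transmembrane ligand of class A plexins, measured 15.5, 11.2 and 31.0 TPM in KD 0 h libraries, against 51.6, 48.0 and 43.4 TPM in control 0 h libraries (−1.38, SE 0.35, adjusted p = 0.023). At 36 h Sema6a measured 26.3, 24.6 and 27.1 TPM in KD libraries, against 53.3, 25.8 and 47.6 TPM in control libraries 1, 3 and 4. Control 36 h library 3 lay within the KD range, and the difference of −0.62 did not pass (adjusted p = 0.44).

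Sema4c (ENSMUSG00000026121), a ligand of Plxnb2, measured 3.17, 1.71 and 7.11 TPM in KD 0 h libraries, against 11.8, 12.1 and 7.20 TPM in control 0 h libraries. The closest libraries of the 2 groups, KD 3 and control 3, nearly met (−1.30, SE 0.40, adjusted p = 0.047), and the call was lost in 10 of the 12 fits that left out 1 library. At 36 h Sema4c measured 8.65, 7.61 and 5.75 TPM in KD libraries, against 16.1, 6.89 and 11.7 TPM in control libraries 1, 3 and 4, and the groups overlapped.

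Sema4a (ENSMUSG00000028064), the semaphorin of highest mean level, measured 50.9, 34.7 and 56.4 TPM in KD 0 h libraries, against 64.6, 64.0 and 74.5 TPM in control 0 h libraries. The groups did not overlap, and the difference of −0.53 did not pass (adjusted p = 0.11). At 36 h it measured 72.1, 82.0 and 76.5 TPM in KD libraries, against 97.2, 65.5 and 80.3 TPM in control libraries, which overlapped. Sema5a (ENSMUSG00000022231), the tested class 5 member, measured 1.28, 1.38 and 1.10 TPM in KD 36 h libraries, against 3.51, 2.26 and 3.45 TPM in control 36 h libraries (−0.84, adjusted p = 0.10). At 0 h Sema5a measured 0.670, 1.03 and 1.61 TPM in KD libraries, against 1.94, 2.11 and 1.11 TPM in control libraries. Its groups overlapped at 0 h and not at 36 h. Sema7a (ENSMUSG00000038264), the lipid-anchored class 7 member, was at most 0.04 TPM in any library.

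The plexins, the signalling receptors of the semaphorins, held 0 of 5 tested genes called at either time. Their log2 differences ran from −0.56 to 0.21 at 0 h (smallest adjusted p = 0.21) and from −0.59 to 0.03 at 36 h (smallest adjusted p = 0.51). Plxnb2 (ENSMUSG00000036606), the plexin of highest mean, measured 83.5, 114 and 118 TPM in KD 0 h libraries, against 124, 105 and 109 TPM in control 0 h libraries. At 36 h Plxnb2 measured 108, 101 and 74.2 TPM in KD libraries, against 171, 82.5 and 142 TPM in control libraries 1, 3 and 4. Its groups overlapped at both times. Whether the plexins differ from the other guidance genes was not tested.

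Of the 5 ephrin-A ligands, Efna3 and Efna5 were lower at 0 h. Efna3 (ENSMUSG00000028039) measured 13.1, 6.43 and 18.3 TPM in KD 0 h libraries, against 36.0, 42.4 and 27.2 TPM in control 0 h libraries (−1.50, SE 0.31, adjusted p = 0.011). At 36 h Efna3 measured 29.4, 27.9 and 27.6 TPM in KD libraries, against 80.7, 63.9 and 70.0 TPM in control libraries 1, 3 and 4. The groups did not overlap at either time. The 36 h difference of −1.30 (SE 0.31) just missed the threshold (adjusted p = 0.054). It passed after scaling by the median of ratios (−1.19, adjusted p = 0.0041).

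Efna1, Efna3 and Efna4 lie side by side on chromosome 3 with 0 protein-coding genes between them in the RefSeq annotation. Efna1 (ENSMUSG00000027954), the guidance gene of highest mean, measured 145, 34.8 and 132 TPM in KD 0 h libraries, against 171, 170.0 and 198 TPM in control 0 h libraries. KD library 2 was far below the rest, and the difference of −1.03 did not pass (adjusted p = 0.10). Without that library it was −0.37 and passed (adjusted p = 0.037), and it also passed without KD 0 h library 1 (−1.39, adjusted p = 0.046) or library 3 (−1.32, adjusted p = 0.036). At 36 h Efna1 measured 119, 122 and 115 TPM in KD libraries, against 157, 130.1 and 129 TPM in control libraries (−0.22, adjusted p = 0.89). Efna3 thus made up 18.1%, 17.0% and 17.8% of the summed TPM of these 3 ligands in KD 36 h libraries, against 31.5%, 29.8% and 31.8% in control 36 h libraries. At 0 h its share was 7.70%, 14.2% and 11.3% in KD libraries, against 15.8%, 18.4% and 11.4% in control libraries. The shares were chosen after the values were seen.

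Efna5 (ENSMUSG00000048915), an ephrin-A ligand that can also bind EphB2, measured 13.0, 20.7 and 13.4 TPM in KD 0 h libraries, against 33.8, 30.2 and 30.4 TPM in control 0 h libraries (−0.99, SE 0.24, adjusted p = 0.018). KD 0 h library 2, the lowest of its group for most guidance genes, was the highest for Efna5. Under median-of-ratios scaling the difference was −0.48 and did not pass (adjusted p = 0.33), whereas without that library and with the scaling Efna5 was called lower. At 36 h Efna5 measured 8.95, 10.4 and 8.32 TPM in KD libraries, against 22.4, 14.5 and 15.4 TPM in control libraries (−0.83, adjusted p = 0.095), with no overlap.

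Efnb1 (ENSMUSG00000031217), the 1 tested ephrin-B ligand, measured 7.89, 4.52 and 17.4 TPM in KD 0 h libraries, against 23.3, 27.5 and 23.1 TPM in control 0 h libraries (−1.40, SE 0.38, adjusted p = 0.028). At 36 h Efnb1 measured 16.5, 13.8 and 11.6 TPM in KD libraries, against 30.8, 18.0 and 26.4 TPM in control libraries (−0.78, adjusted p = 0.34). KD and control libraries did not overlap at either time. Its relative Efnb2 (ENSMUSG00000001300), just under the limit for testing, measured 0.490, 0.430 and 0.230 TPM in KD 36 h libraries, against 1.64, 0.740 and 1.75 TPM in control 36 h libraries. At 0 h Efnb2 measured 0.12, 0.16 and 0.58 TPM in KD libraries, against 0.68, 0.88 and 0.40 TPM in control libraries, and the groups overlapped.

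Of the EphA receptors, Epha2 and Epha7 were lower at 0 h. Epha2 (ENSMUSG00000006445), a receptor common in epithelia and a binder of Efna1, measured 1.86, 1.87 and 3.13 TPM in KD 0 h libraries, against 6.27, 5.45 and 5.51 TPM in control 0 h libraries (−1.06, SE 0.23, adjusted p = 0.014). At 36 h Epha2 measured 3.68, 3.45 and 4.61 TPM in KD libraries, against 9.44, 5.93 and 8.89 TPM in control libraries (−0.87, adjusted p = 0.077). The groups were apart at both times.

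Epha7 (ENSMUSG00000028289) measured 6.48, 2.53 and 19.3 TPM in KD 0 h libraries, against 27.7, 28.7 and 34.6 TPM in control 0 h libraries (−1.94, SE 0.53, adjusted p = 0.030). The KD libraries differed more among themselves than KD library 3 did from the lowest control. At 36 h Epha7 measured 15.1, 17.4 and 10.5 TPM in KD libraries, against 26.8, 12.2 and 26.5 TPM in control libraries 1, 3 and 4, and the groups overlapped (−0.52, adjusted p = 0.73). Epha1 (ENSMUSG00000029859), the EphA receptor of highest mean, measured 22.7, 12.2 and 54.2 TPM in KD 0 h libraries, against 54.3, 53.4 and 25.0 TPM in control 0 h libraries. KD library 3 and control library 3 each sat with the other group. At 36 h Epha1 measured 50.3, 47.8 and 40.7 TPM in KD libraries, against 70.7, 39.0 and 59.6 TPM in control libraries, which overlapped (−0.25, adjusted p = 0.89).

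Both EphB receptors lower at 0 h are known from epithelia or vessels: EphB3 helps sort cells in the crypts of the gut, and EphB4 is the receptor of ephrin-B2. Ephb3 (ENSMUSG00000005958) measured 11.4, 6.80 and 21.3 TPM in KD 0 h libraries, against 39.4, 33.8 and 36.7 TPM in control 0 h libraries (−1.54, SE 0.39, adjusted p = 0.024). At 36 h Ephb3 measured 26.1, 25.2 and 19.1 TPM in KD libraries, against 65.5, 25.8 and 49.4 TPM in control libraries 1, 3 and 4 (−0.88, adjusted p = 0.29). Control 36 h library 3 lay just inside the KD values, so that the groups overlapped.

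Ephb4 (ENSMUSG00000029710) measured 44.7, 29.6 and 82.4 TPM in KD 0 h libraries, against 102, 104 and 105 TPM in control 0 h libraries (−1.10, SE 0.35, adjusted p = 0.049). The groups did not overlap, but the call was lost in 10 of the 12 fits that left out 1 library. At 36 h Ephb4 measured 73.0, 72.9 and 51.7 TPM in KD libraries, against 119, 62.8 and 96.9 TPM in control libraries (−0.46, adjusted p = 0.61), and control library 3 again fell among the KD values.

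**Figure D4:**
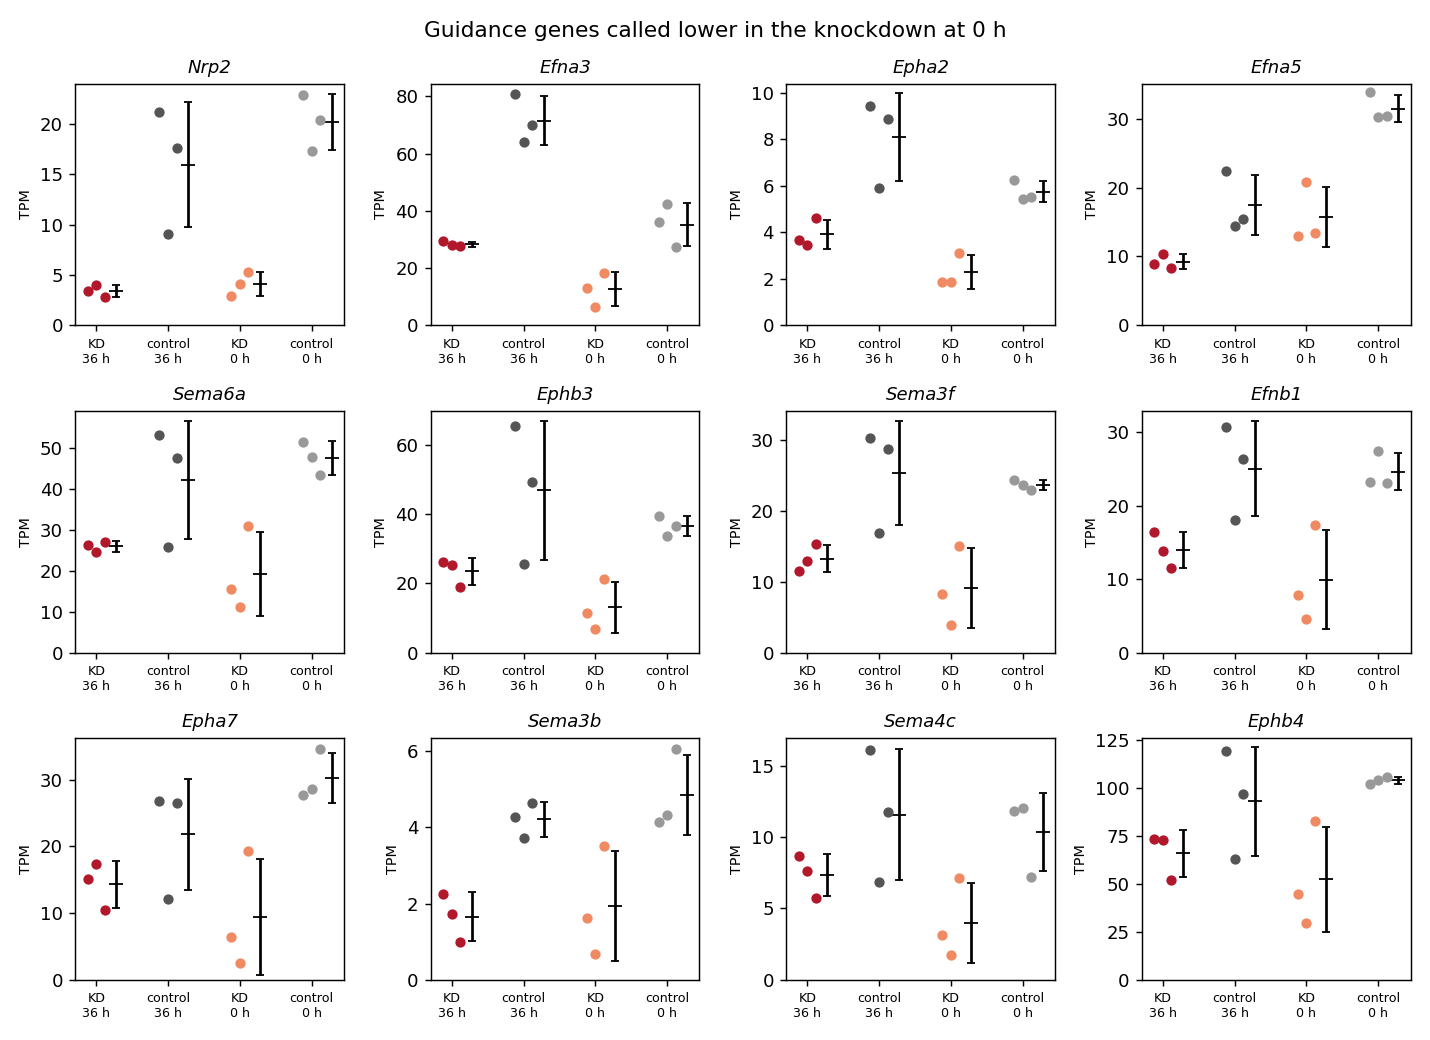
TPM of the 12 guidance genes lower in the knockdown at 0 h, by group (36 h left, 0 h right, KD left of control); dots are libraries in order of replicate number and bars give the mean ± SD of 3, on axes that start at 0. KD libraries lie below every control library at both times for Nrp2, Efna3, Epha2, Efna5, Sema3f, Efnb1 and Sema3b, while control 36 h library 3 falls among the KD values for Sema6a, Ephb3, Epha7, Sema4c and Ephb4.

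Taking libraries rather than tests, 18 of 35 guidance genes (51.4%) had every KD library below every control library at 0 h, beside 30.7% of all tested genes, and 1 (Epha3) had every KD library above, beside 7.24%. The 18 hold the 12 genes called there, and besides them Efna1, Efna4, Sema3c, Sema3d, Sema4a and Sema4d, with log2 differences of −0.53 to −1.03 and adjusted p of 0.071 to 0.11. Of these, Sema3d, a secreted semaphorin whose gene adjoins Sema3a on chromosome 5, measured 3.87, 2.95 and 10.5 TPM in KD libraries, against 12.04, 10.76 and 11.03 TPM in control libraries. Its 36 h values were 10.7, 9.17 and 6.78 TPM in KD libraries, against 18.6, 9.69 and 17.8 TPM in control libraries 1, 3 and 4, which overlapped. At 36 h, 12 (34.3%) lay wholly below, beside 22% of all tested genes, and 3 (8.57%: Sema3a, Nrp1 and Sema4b) wholly above, beside 14.8%. Control 36 h library 3 was the lowest of its group in 31 of 35 guidance genes (88.6%), beside 56.7% of all tested genes. Control 36 h library 3 was at or under the highest KD 36 h library in 23 of the 35, where control 36 h library 1 was so in 9 and library 4 in 10. This last count was not made over all tested genes, so whether it is particular to guidance genes is not known. Without KD 0 h library 2, 11.7% of all genes were called lower and 6.88% higher at 36 h, and 10 of 35 guidance genes passed: Efna3, Nrp2, Efna5, Epha2, Sema3b, Sema4d, Sema5a, Sema3f and Efna4 lower, and Sema3a higher. Without KD 0 h library 3, 3 passed, all lower, beside 2.51% of all genes. Without both KD 0 h library 2 and control 36 h library 4, 3 passed (Efna3, Nrp2 and Efna5, all lower), beside 6.29% of all genes.

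The 4 groups include no 36 h culture kept without migration, so migration and time in culture cannot be told apart. From 0 h to 36 h, 0 of the 35 guidance genes were called in the knockdown, beside 0.125% of all tested genes lower and 0.998% higher. In the control, 0 of 35 were called, beside 0.111% of all genes lower and 0.25% higher. At an unadjusted p under 0.05, 6 of 35 (17.1%) passed in the knockdown, beside 16.4% of all genes, and 3 of 35 (8.57%) in the control, beside 5.57%. The median log2 change of the guidance genes was 0.36 in KD, beside 0.33 over all genes, and 0.13 in control, beside −0.01. With median-of-ratios scaling the KD medians were 0.04 and −0.00.

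The ligands Efna3 and Efna5 differed over time in opposite directions in both kinds of cell, and neither passed. Efna3 averaged 28.3 ± 0.949 TPM at 36 h and 12.6 ± 5.93 TPM at 0 h in KD cells, and 71.5 ± 8.53 TPM at 36 h and 35.2 ± 7.60 TPM at 0 h in control cells (SD, n = 3 each). All 36 h libraries lay above all 0 h libraries in both, with log2 changes of 1.21 in KD (SE 0.31, adjusted p = 0.11) and 1.02 in control (SE 0.31, adjusted p = 0.40). Once scaled by the median of ratios both passed, at 0.85 in KD (adjusted p = 0.034) and 1.03 in control (adjusted p = 0.022). Efna5 averaged 9.23 ± 1.07 TPM at 36 h and 15.7 ± 4.34 TPM at 0 h in KD cells, and 17.4 ± 4.33 TPM at 36 h and 31.5 ± 2.02 TPM at 0 h in control cells (SD, n = 3 each). All its 36 h libraries lay below all its 0 h libraries in both, with changes of −0.68 in KD (adjusted p = 0.22) and −0.84 in control (adjusted p = 0.30). Without KD 0 h library 2, Efna3 was called higher and Efna5 lower in the control, beside 1.19% of all genes higher and 1.56% lower.

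The difference between the changes over time in KD and control was called for 0 of the 35 guidance genes and 0 of all 14426 genes by limma. At an unadjusted p under 0.05, 1 guidance gene (2.86%) passed, beside 5.31% of all genes. That gene was Sema3a, whose level changed over time by 0.96 in KD and by −0.39 in control on the log2 scale (difference 1.35, SE 0.41, adjusted p = 0.59). Without KD 0 h library 3, which held the highest levels of its group for most guidance genes, 10 of 35 guidance genes were called higher at 36 h in the knockdown, among them Efna3, Sema3a, Epha7 and Ephb3, beside 9.56% of all genes called higher in that fit.

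**Figure D5:**
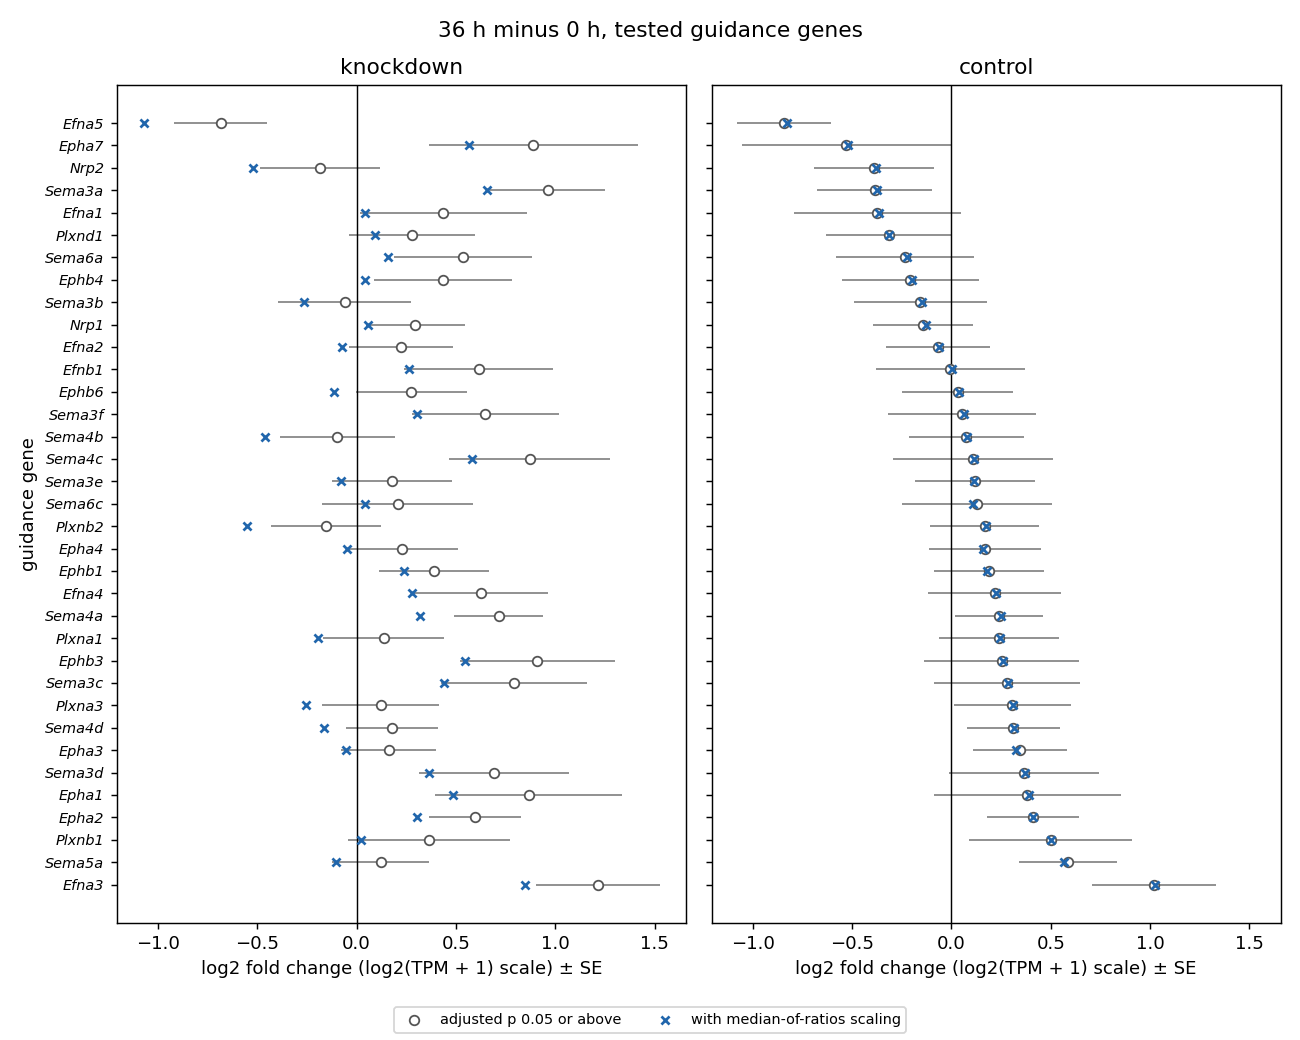
Change over time, 36 h minus 0 h, for the 35 tested guidance genes in the knockdown (left) and the control (right), as log2 fold change on the log2(TPM + 1) scale with its SE from limma. No point passed an adjusted p of 0.05, and crosses give the value with median-of-ratios scaling. Efna3 lies farthest to the right and Efna5 farthest to the left in both panels.

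Partners of these receptors inside and beside the membrane were read from 3 lists. Of 39 semaphorin and plexin co-receptors and effectors, 32 were tested, and at 0 h 6 (18.8%) were lower and 1 (3.12%) higher in the knockdown, beside the background of 14.6% and 3.1%. At 36 h 2 (6.25%) were lower, Flt1 and Chl1, and 1 (3.12%) higher, Nrcam, beside 1.64% and 0.894%. With median-of-ratios scaling the counts were 5 lower and 3 higher at 0 h, beside 10.2% and 8.66% of all genes, and 5 lower and 1 higher at 36 h, beside 3.44% and 2.5%. The higher counts at both times, with and without scaling, include Nrcam, which entered the test through KD libraries alone. They are therefore not read against the background. The share lower at 0 h is near the background.

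Nrcam, a cell adhesion molecule of the L1 family that can join neuropilin complexes, measured 1.96, 2.64 and 2.51 TPM in KD 0 h libraries, against 0.02, 0.07 and 0.25 TPM in control 0 h libraries. At 36 h Nrcam measured 1.25, 1.60 and 1.38 TPM in KD libraries, against 0.11, 0 and 0 TPM in control libraries 1, 3 and 4. It reached 1 TPM in KD libraries alone and so entered the test through them, and its values are given as a description with no p. Its relative Chl1 fell to 0.193 TPM in KD, against 2.46 TPM in control cells at 0 h (−1.53, adjusted p = 0.0019), and to 1.27 TPM in KD, against 3.57 TPM in control cells at 36 h (−1.02, adjusted p = 0.031).

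The VEGF receptor Flt1 averaged 4.57 TPM in KD and 14.6 TPM in control cells at 0 h (−1.53, adjusted p = 0.0058), and 4.34 TPM in KD and 13.9 TPM in control cells at 36 h (−1.49, adjusted p = 0.023). The small GTPase Rnd3, which binds plexins, averaged 4.02 TPM in KD and 17.0 TPM in control cells at 0 h (−1.93, adjusted p = 0.0046). Chl1, Flt1 and Rnd3 passed at 0 h in all 12 fits that left out 1 library. The calls of Flt1 and Chl1 at 36 h were each lost on leaving out any KD 36 h library or control 36 h library 1 or 4. That of Chl1 was lost too without control 36 h library 3 or control 0 h library 1 or 2 (adjusted p up to 0.14), with a pseudocount of 0.1 and with no filter.

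Of 22 Eph and ephrin effectors, 20 were tested, and 3 (15%) were lower and 0 higher at 0 h, a share near the 14.6% of all genes, while 0 were called at 36 h. The 3 were the exchange factor Ngef, which acts below EphA receptors (14.4 TPM in KD and 35.0 TPM in control cells, −1.38, adjusted p = 0.026), the Ras GTPase activating protein Rasa1 (−0.73, adjusted p = 0.033) and the adaptor Nck2 (−1.36, adjusted p = 0.045). With median-of-ratios scaling 3 were lower again, with Rasa1 not among them (−0.22, adjusted p = 0.59). Of the 12 fits that left out 1 library, the call of Ngef was lost in 3, that of Rasa1 in 8 and that of Nck2 in 9.

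Of 25 genes of other guidance families (Slit, Robo, netrin, Unc5, Rgm and Flrt), 11 were tested. At 0 h 3 of them (27.3%) were lower and 0 higher in KD, beside 14.6% and 3.1% of all genes, and with scaling 2 were lower and 1 higher. They were Flrt3 (3.24 TPM in KD and 11.1 TPM in control cells, −1.55, adjusted p = 0.0035), the netrin receptor Unc5b (−0.89, adjusted p = 0.018) and Flrt2. Flrt2 measured 0.29, 0.03 and 0.38 TPM in KD 0 h libraries, against 2.57, 1.48 and 1.15 TPM in control 0 h libraries. It reached 1 TPM in those control libraries alone and entered the test through them, so no p is given for it. The 0 h counts of 3 lower and, with scaling, 2 lower include Flrt2, so they are not read against the background. Flrt3 passed in all 12 fits that left out 1 library, and Unc5b was lost in 3 of them and with scaling (−0.43, adjusted p = 0.36). At 36 h Unc5b alone was lower, at 2.88 TPM in KD and 7.55 TPM in control cells (−1.14, adjusted p = 0.023), beside 1.64% of all genes. That call was lost without any one 36 h library of either group (adjusted p up to 0.11) and with scaling (adjusted p = 0.095), under which Flrt3 was lower in its place. Over time, 0 genes of these lists were called in either kind of cell. With scaling, 1 of the 20 tested Eph effectors, Ngef, was higher in KD, beside 1.22% of all genes. In control, 1 of the 32 tested genes of the semaphorin list, Vegfa, was lower with scaling, beside 0.263% of all genes.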

How the data were processed

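The authors' deposited table gives TPM per gene for 12 libraries of HC11 cells, with Ensembl identifiers and gene symbols. Per the labels' protocols, stranded mRNA libraries were made from total RNA. Tools listed in the submitters' processing notes are HISAT2 2.2.1, cutadapt 1.9.1, DESeq2, HTSeq and FastQC, with the build GRCm39. The annotation and the strand setting of the counting are not given in the sources used here, and read depth is unknown, since TPM keeps none. TPM divides by the sum over all genes, so that a few abundant genes lower all others.

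A gene was tested where 3 or more of the 12 libraries reached 1 TPM (14426 of 57180 genes). Values were analysed as log2(TPM + 1) with limma 3.58.1 in R 4.3.3, with a mean for each of the 4 groups, an intensity trend and Benjamini-Hochberg adjustment over all tested genes. The 5 comparisons were knockdown against control at each time, 36 h against 0 h in each kind of cell, and the difference between these changes. The test was tested on simulated data. The guidance genes and lists were chosen with earlier results of these data known. Values in every library are given for guidance genes called in any comparison and for the gene of highest mean in each class, and up to 4 called genes of lowest adjusted p are named for each list; Nrp1, Sema3a, Sema3d and Efnb2 were added after their values were seen.

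No pairing by replicate number is known, and the main fit used none. Deviations of same-numbered libraries from their group means correlated between −0.287 and 0.132, which cannot decide whether the libraries were prepared in pairs. No 2 libraries held the same values. Alternatives were a pseudocount of 0.1, no filter on low values, median-of-ratios scaling, a fit on the compared groups alone, a block for replicate number, and each library left out. Fits without KD 0 h library 2 and control 36 h library 4, or without KD 0 h library 2 and with scaling, were chosen after seeing the data.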

Additional observations from a re-analysis of the deposited data

How the results depend on the processing

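Each guidance gene called at 0 h or 36 h kept its direction under every alternative run. In the comparisons where they were called, every KD library lay below every control library. Leaving out a library, or changing the pseudocount, the filter or the groups fitted, therefore could not have reversed them. Counts of called genes moved. For the guidance genes at 0 h (12 called), the count was 4 with no filter on low values, 0 when KD and control 0 h libraries were fitted alone, and 6 without KD 0 h library 2 and control 36 h library 4. At 36 h (1 called), it was 3 with median-of-ratios scaling, 7 with the compared groups alone, 3 without those 2 libraries, and 9 without KD 0 h library 2 with scaling. Over time in KD (0 called) it was 1 with scaling and 1 without KD 0 h library 2 with scaling. Over time in control (0 called) it was 1 and 2 in those fits.

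For all tested genes at 0 h (2550 called), the count was 1258 with no filter and 16 with the compared groups alone. At 36 h (365 called) it was 192 with no filter, 857 with scaling, 2176 with the compared groups alone, 1439 without those 2 libraries and 2741 without KD 0 h library 2 with scaling. Over time in KD (162 called) it was 240 with scaling and then 18, 255 and 411 in the last 3 of these fits. In control (52 called) it was 88 with scaling and then 247, 159 and 390. For the difference of the changes (0 called) it was 1 with no filter, 1 with scaling, 10 without the 2 libraries and 6 without KD 0 h library 2 with scaling.

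Leaving out 1 library at a time gave 2 to 20 guidance genes at 0 h, 0 to 10 at 36 h, 0 to 10 over time in KD, 0 to 2 over time in control and 0 for the difference. For all genes these fits gave 747 to 5853 at 0 h, 24 to 2683 at 36 h, 47 to 1541 over time in KD, 17 to 397 over time in control and 0 to 11 for the difference. With the replicate block, although the numbers mark no known pairing, 2 guidance genes (Nrp2 and Efna3) and 1011 of all genes were called at 0 h, 0 and 5 at 36 h (Nrp2 at an adjusted p of 0.256), 40 of all genes over time in KD, 6 in control, and 1 for the difference. Not every library correlated best with its own number. The causes of these shifts were not tested. Without read counts, the precision of guidance genes of a few TPM could not be set from depth.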
